A study of Caenorhabditis elegans with 8 samples.

Results

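The *lbp* genes of *C. elegans* encode the lipid binding proteins, the nematode members of the fatty acid binding protein family. The 9 genes *lbp-1* to *lbp-9* were found by gene symbol among the 46926 genes of the count table. Their level was examined in whole animals with and without a deletion of *smrd-1*, the homolog of the human chromatin remodeler gene *SMARCAD1*. None of the 9 passed the main test between the groups. The most variable member, *lbp-8*, was divided by replicate number more than by group. So were *lbp-2*, *lbp-6* and *lbp-9*, by smaller shifts. Shifts at least as large as those of *lbp-8*, *lbp-2*, *lbp-6* and *lbp-9* were found in 8.68%, 67.5%, 59.5% and 40.2% of all genes tested.

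Proteins of this family are small barrels that hold a fatty acid or a similar lipid in an inner cavity and carry it through water. In *C. elegans* the family has secreted members, which carry a signal for export, and intracellular members, several of which act in the intestine, the main fat store of the worm. LBP-8 takes lipid from the lysosome to the nucleus, where the lipid activates the nuclear receptors NHR-49 and NHR-80 and extends lifespan. LBP-3 takes part in a lipid signal that leaves the intestine for neurons, and LBP-5 is known for its part in fat storage.

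Polyadenylated RNA of whole worms was sequenced in 4 libraries titled Control, from the wild type strain N2 (non-Tg in the paper), and in 4 titled smrd1Null, from *smrd-1 Δ#1*, the strain homozygous for the allele bk3122. That allele is a CRISPR-Cas9 deletion aimed at exons 1 to 6, it was represented by 1 line, and no tau transgene was present in either group. All worms were kept at 20 °C on OP50 bacteria. The extraction protocol and the paper give the L4 larval stage, whereas the design text gives adults. The number of worms in a pellet was not given in the sources used here, and neither the labels nor the paper say whether the replicates came from separate cultures, so the p-values measure the spread between these libraries, which may be technical.

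Between 74704022 and 78008833 counts were assigned to genes in each library. *smrd-1* itself was higher in the libraries titled smrd1Null, at 85.1 ± 4.35 CPM (the count as a share of the library's total after TMM scaling, SD, n = 4) against 47.9 ± 3.93 (SD, n = 4), a log2 fold change of 0.83 (adjusted p = 0.00889, edgeR). A higher level goes against the label, although reads from the exons outside the deletion would still be counted, so each group is called by its title and every direction holds only if the titles do. Markers of intestine, muscle, hypodermis, neurons and germ line were present in each library. Of 7 genes of the early embryo, *tbx-35* had no count in any library, and the 7 together reached at most 0.552 CPM.

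The members, WBGene00002253 to WBGene00002260 for *lbp-1* to *lbp-8* and WBGene00021486 for *lbp-9*, lay in part side by side. *lbp-3*, *lbp-1* and *lbp-2* lie in this order on the plus strand of chromosome X, at 3257372 to 3258155, 3259142 to 3259812 and 3260610 to 3261470 of the WBcel235 genome, with gaps of 986 and 797 bases and no other coding gene between them. *lbp-6* and *lbp-5* lie on the minus strand of chromosome I, at 6728296 to 6729376 and 6731267 to 6732276, with *ant-1.2* between them. *lbp-7* and *lbp-8* lie on the plus strand of chromosome V, at 13879552 to 13880213 and 13890773 to 13891364, with 3 coding genes between them. *lbp-4* (7820578 to 7821477) and *lbp-9* (2068449 to 2069142) lie elsewhere on the plus strand of chromosome V.

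Exon structure was shared across these places in part. The next-to-last exon was 114 bases long in *lbp-1*, *lbp-2* and *lbp-3*. The genes *lbp-5*, *lbp-6*, *lbp-7* and *lbp-8* had 2 exons each, and the first of them was 217 bases in *lbp-5*, *lbp-6* and *lbp-7* and 226 bases in *lbp-8*. These lengths include leading untranslated bases, 7 in *lbp-5*, 10 in *lbp-6*, 4 in *lbp-7* and 13 in *lbp-8*. The equal 217 bases are therefore not equal coding lengths. The proteins of the X-linked genes were the longest, with 159 residues for LBP-1, 161 for LBP-2 and 165 for the longest form of LBP-3. LBP-5 to LBP-8 had 135 to 137 residues, LBP-4 had 145 and the longest form of LBP-9 had 152. Strand was not used in the counting. *lbp-6* shares 35 exonic bases with *mec-6* on the other strand and *lbp-9* shares 5 with Y40B10A.9, and no exon of the other 7 members overlaps another gene. Reads that fit more than 1 place were left out by the authors' counting, and how far this lowers the counts of related members was not tested.

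Counts were ample for all 9 genes, from 153 for *lbp-8* in the Control library of replicate 2 to 33867 for *lbp-6* in the same library. Together the family took 0.106% to 0.126% of the counts of a library. Per kilobase of exon, *lbp-6* was the highest, with 790.0 ± 81.5 RPKM (SD over 8 libraries), followed by *lbp-9* with 410.5 ± 82.3 and *lbp-2* with 355.1 ± 31.3. These 3 genes held 78.2% to 80.3% of the summed per-length level of the family. *lbp-8* was the lowest, with 7.86 ± 3.30 RPKM, and held at most 0.609%.

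Between these ends came *lbp-3* at 116.0 ± 6.67 RPKM, *lbp-5* at 82.1 ± 8.37, *lbp-7* at 78.5 ± 11.2, *lbp-4* at 65.7 ± 5.26 and *lbp-1* at 50.4 ± 8.39 (SD over 8 libraries). The ranges over the 8 libraries overlapped between *lbp-9* and *lbp-2*, and between each neighbouring pair from *lbp-5* down to *lbp-1*. The order of these neighbours was not the same in every library. Within libraries, *lbp-9* was above *lbp-2*, *lbp-7* above *lbp-4* and *lbp-4* above *lbp-1* in 7 of 8, and *lbp-5* was above *lbp-7* in 5 of 8. The ranges did not overlap between *lbp-6* and *lbp-9*, between *lbp-2* and *lbp-3*, between *lbp-3* and *lbp-5*, or between *lbp-1* and *lbp-8*. The summed per-length level of the family was 1930 ± 40.7 RPKM (SD, n = 4) in the Control libraries and 1983 ± 56.3 (SD, n = 4) in the smrd1Null libraries, with ranges of 1874 to 1962 and 1925 to 2060.

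**Figure D1:**
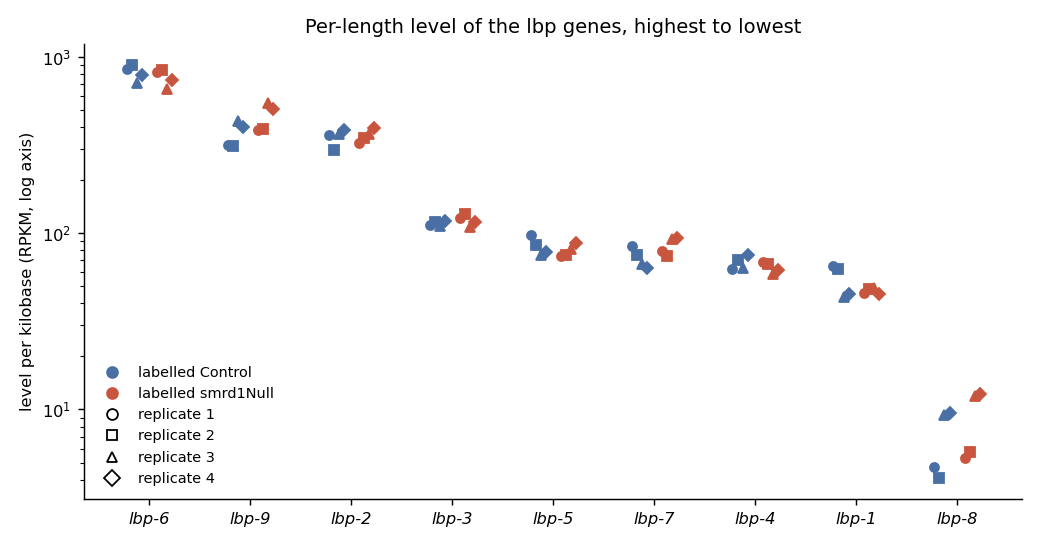
Level per kilobase of exon (RPKM, log axis) of the 9 *lbp* genes, ordered from the highest mean to the lowest, with 1 point per library, coloured by title and shaped by replicate number. *lbp-6* lies highest at 656 to 903 RPKM and *lbp-8* lowest at 4.07 to 12.3 RPKM.

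The first comparison asked whether any *lbp* gene differed between the smrd1Null and Control libraries. All 9 passed edgeR's filter on low counts, 5 had a log2 fold change above 0 and 4 below 0, and the median was 0.03, beside -0.01 over all 16808 genes tested. edgeR called 0 of the 9 at an adjusted p of at most 0.05, against 0.155% of all genes tested (26 genes). Of the 9, 0 had an unadjusted p under 0.05, against 7.74% of all genes tested, and DESeq2 called 0, against 1.26% of the genes to which it gave an adjusted p, or 0.893% without independent filtering. The CPM of the groups overlapped in all 9, and of all genes tested 5.20% did not overlap. The log2 fold changes ran from -0.20 for *lbp-1* to 0.36 for *lbp-8*, with adjusted p from 0.652 to 0.933 (edgeR).

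**Figure D2:**
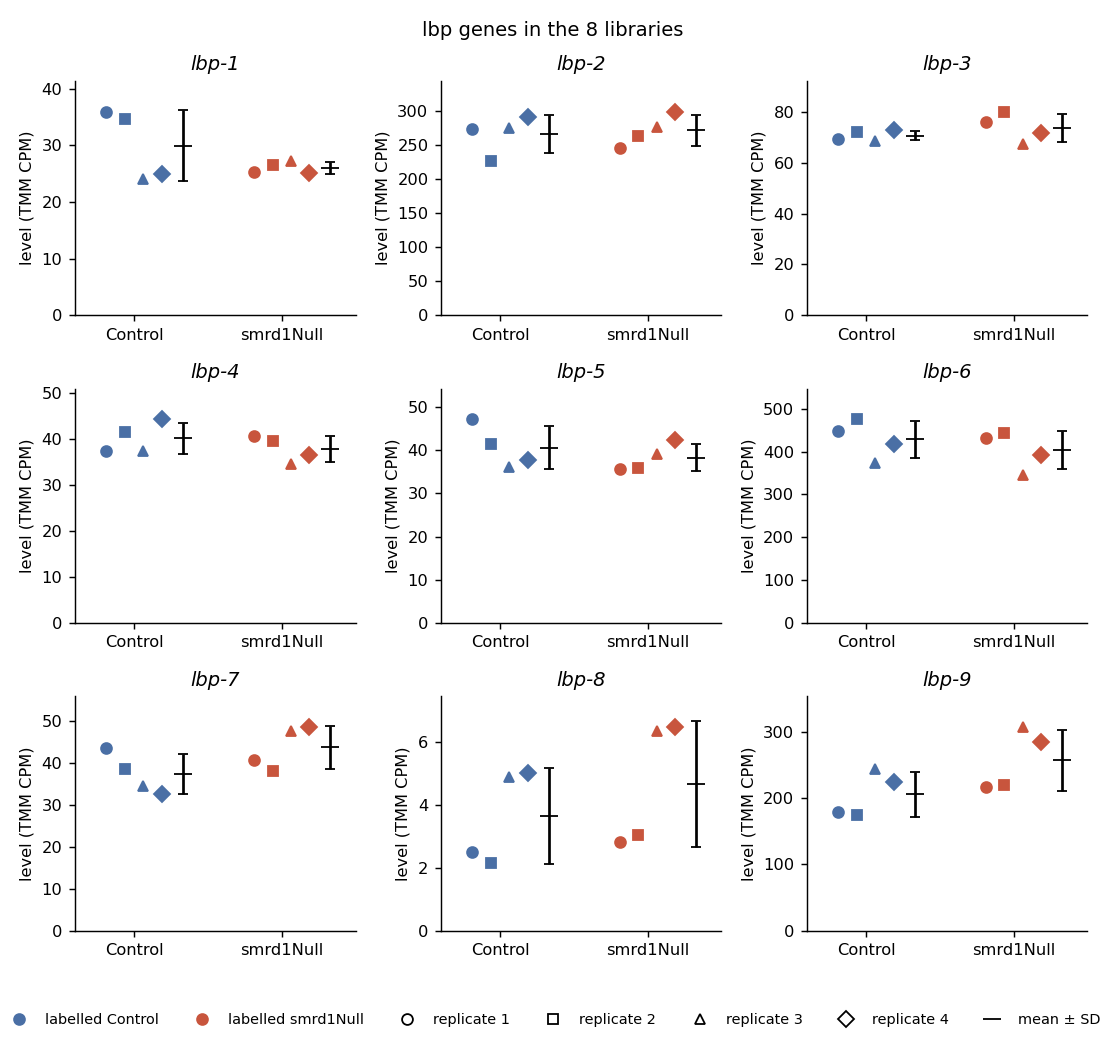
Level in CPM (TMM, axis from 0) of each *lbp* gene in the 8 libraries, with points coloured by title and shaped by replicate number, and the mean ± SD of each group beside its 4 points. The groups overlap in all 9 panels, and in *lbp-8* the libraries of replicates 3 and 4 (4.90 to 6.47 CPM) lie above those of replicates 1 and 2 (2.15 to 3.04 CPM).

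Among the members that lie side by side on chromosome X, *lbp-1* was the most variable. It stood at 36.0, 34.7, 24.0 and 25.04 CPM in Control replicates 1 to 4 and at 25.2, 26.6, 27.2 and 25.09 CPM in smrd1Null replicates 1 to 4. Control replicates 1 and 2 were high, and the other 6 libraries lay close together. The group levels were 29.9 ± 6.28 and 26.04 ± 1.04 CPM (SD, n = 4), and differed by -0.20 on the log2 scale (SE, the standard error, 0.145, 95% interval -0.53 to 0.13, edgeR adjusted p = 0.709).

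Its neighbours on chromosome X were steadier. *lbp-3* was at 70.9 ± 1.93 CPM in the Control libraries and 73.9 ± 5.51 CPM in the smrd1Null libraries (SD, n = 4). Its interval was the narrowest of the family, with a log2 fold change of 0.06 (95% interval -0.10 to 0.23). *lbp-2* had 267.1 ± 28.2 and 272.0 ± 22.5 CPM (SD, n = 4) in the same order and a log2 fold change of 0.03 (95% interval -0.21 to 0.26). That sign rested on single libraries. It turned to -0.05 without Control replicate 2 and to -0.03 without smrd1Null replicate 4.

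The most abundant member of the family was *lbp-6*. It had 429.2 ± 43.6 CPM in the Control libraries and 403.5 ± 44.3 CPM in the smrd1Null libraries (SD, n = 4), a log2 fold change of -0.09 (95% interval -0.34 to 0.16). The smrd1Null library was the lower of each of the 4 same-numbered pairs, by 0.05 to 0.11 on the log2 scale. *lbp-4* had 40.1 ± 3.40 and 37.8 ± 2.76 CPM (SD, n = 4), with a log2 fold change of -0.08 (95% interval -0.29 to 0.12).

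*lbp-5*, the fat storage gene next to *lbp-6*, stood at 47.2, 41.4, 36.2 and 37.7 CPM in Control replicates 1 to 4 and at 35.7, 35.9, 39.2 and 42.5 CPM in smrd1Null replicates 1 to 4. The groups crossed, with the Control libraries higher in replicates 1 and 2 and the smrd1Null libraries higher in replicates 3 and 4. The log2 fold change over all libraries was -0.08 (SE 0.105, 95% interval -0.32 to 0.15, edgeR adjusted p = 0.798).

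*lbp-7* was at 43.6, 38.6, 34.6 and 32.7 CPM in Control replicates 1 to 4 and at 40.8, 38.1, 47.7 and 48.7 CPM in smrd1Null replicates 1 to 4. The smrd1Null libraries of replicates 3 and 4 were above all others, and replicates 1 and 2 did not separate the groups. The log2 fold change was 0.23 (SE 0.12, 95% interval -0.04 to 0.50, edgeR adjusted p = 0.663).

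*lbp-8*, the carrier of the lysosomal lipid signal, stood at 2.49, 2.15, 4.90 and 5.02 CPM in Control replicates 1 to 4 and at 2.81, 3.04, 6.33 and 6.47 CPM in smrd1Null replicates 1 to 4. In every library of replicates 3 and 4 it was higher than in every library of replicates 1 and 2. The spread between replicates was therefore larger than the difference between the groups, and the log2 fold change was 0.36 with the widest interval of the family, -0.55 to 1.26 (SE 0.398, edgeR adjusted p = 0.782). In this fit the interval of the fold ran from 0.684 to 2.40. Within same-numbered pairs, which the labels do not describe, the smrd1Null library was higher in 4 of 4. The differences were 0.17, 0.49, 0.37 and 0.37 on the log2 scale. The fits that take account of the replicates gave narrower intervals, 0.05 to 0.66 with the replicate block and 0.10 to 0.60 with replicates 1 and 2 divided from 3 and 4. With 1 library left out the log2 fold change ran from 0.15 without smrd1Null replicate 4 to 0.55 without Control replicate 4.

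*lbp-9* was at 179.5, 175.3, 243.7 and 224.3 CPM in Control replicates 1 to 4 and at 217.4, 219.5, 307.9 and 284.7 CPM in smrd1Null replicates 1 to 4. The smrd1Null library was the higher of each same-numbered pair, by 0.28, 0.32, 0.34 and 0.34 on the log2 scale, while Control replicates 3 and 4 still lay above smrd1Null replicates 1 and 2. As for *lbp-6* and *lbp-8*, the labels describe no such pairs. The group levels were 205.7 ± 33.7 and 257.3 ± 45.9 CPM (SD, n = 4), which differed by 0.32 on the log2 scale (SE 0.157, 95% interval -0.03 to 0.68, edgeR adjusted p = 0.652).

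The fits that let replicates differ narrowed the intervals of *lbp-8* and *lbp-9*. The replicate block widened those of *lbp-5*, to -0.35 to 0.19, and of *lbp-7*, to -0.10 to 0.56. When same-numbered libraries were paired by a replicate block, *lbp-9* had a log2 fold change of 0.32 with an interval of 0.20 to 0.44 (unadjusted p = 0.000604, edgeR adjusted p = 0.0802), and *lbp-8* had 0.35 with an interval of 0.05 to 0.66 (edgeR adjusted p = 0.168). The block called 0 of the 9 genes, against 0.155% of all genes tested. With a covariate that divides replicates 1 and 2 from 3 and 4, a division read from the counts of all genes in an earlier look at these data, edgeR called *lbp-9* (log2 fold change 0.32, SE 0.0514, adjusted p = 0.0201) and none of the other 8, against 5.53% of all genes tested (929 genes). *lbp-8* came next with an adjusted p of 0.0858 from edgeR. The call of *lbp-9* was kept in 3 of the 8 fits that left out 1 library from this model, with adjusted p from 0.0261 to 0.0699 (edgeR), and its log2 fold change was 0.28 to 0.33 over the 8.

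**Figure D3:**
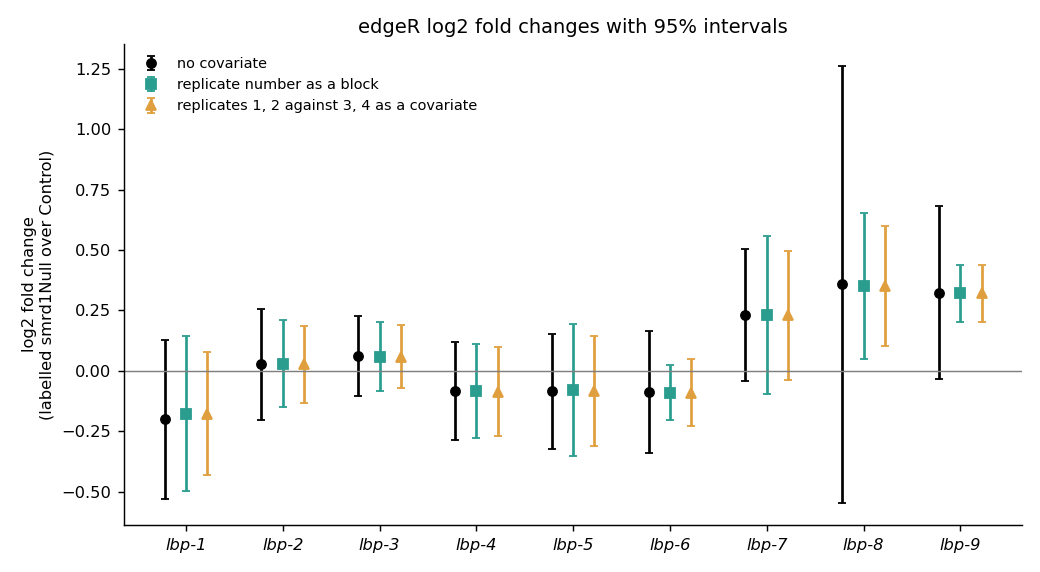
edgeR log2 fold changes of the 9 *lbp* genes (smrd1Null over Control) with 95% intervals from 3 fits, which are without a covariate (circles), with a replicate block (squares) and with replicates 1 and 2 divided from 3 and 4 (triangles). The estimates barely move between fits while the interval of *lbp-8* shrinks from -0.55 to 1.26 without a covariate to 0.10 to 0.60 with the division.

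The libraries of replicates 1 and 2 were then set against those of replicates 3 and 4. On the log2 scale *lbp-8* was higher in replicates 3 and 4 than in replicates 1 and 2 by 1.09 in the Control libraries and by 1.13 in the smrd1Null libraries. The mean shift of 1.11 was reached or passed, in either direction, by 8.68% of all genes tested. *lbp-9* shifted by 0.40 and 0.44 in the same order, a size that 40.2% of genes reached. *lbp-2* shifted by 0.19 and 0.18, and *lbp-6* by -0.22 and -0.25, sizes that 67.5% and 59.5% of genes reached. In *lbp-2*, *lbp-6* and *lbp-9*, as in *lbp-8*, every library of replicates 3 and 4 lay on one side of every library of replicates 1 and 2. The median size of the mean shift over all genes tested was 0.32. The share of all genes with such a full separation was not counted. *lbp-1*, *lbp-5* and *lbp-7* shifted downward in the Control libraries only, by -0.53, -0.26 and -0.29, against 0.01, 0.19 and 0.29 in the smrd1Null libraries.

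Within each of these replicate sets the group difference could be read without the division. For *lbp-8* it was 0.33 on the log2 scale in replicates 1 and 2 and 0.37 in replicates 3 and 4. For *lbp-9* it was 0.30 and 0.34. In these 2 genes alone of the 9, both smrd1Null libraries lay on the same side of both Control libraries in each set, a pattern that 24.5% of all genes tested also showed (12.6% with the smrd1Null libraries higher).

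In other members the group difference was not the same in the 2 sets. For *lbp-1* it was -0.45 in replicates 1 and 2 and 0.09 in replicates 3 and 4, and in *lbp-5* it was -0.30 and 0.14. In both genes the smrd1Null libraries lay below both Control libraries in the first set and above both in the second. For *lbp-7* the values were -0.06 and 0.52. Tested as an interaction in edgeR, chosen after the values were seen and resting on 2 libraries per group and set, the change between sets was 0.54 for *lbp-1* (95% interval 0.26 to 0.82, adjusted p = 0.0479), 0.58 for *lbp-7* (95% interval 0.30 to 0.86, adjusted p = 0.0381) and 0.45 for *lbp-5* (95% interval 0.17 to 0.74, adjusted p = 0.0913). So 2 of 9 members passed, against 4.16% of all genes tested. The other 6 had adjusted p from 0.440 to 0.996 (edgeR). With 1 library left out, at most 1 of the 9 passed in any of the 8 fits.

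**Figure D4:**
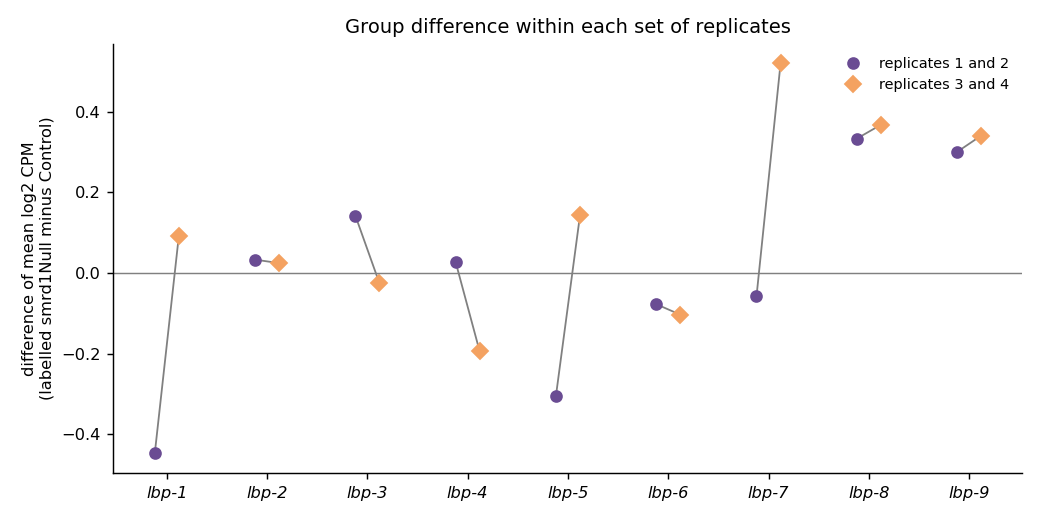
Difference of mean log2 CPM (smrd1Null minus Control) of each *lbp* gene within replicates 1 and 2 (circles) and within replicates 3 and 4 (diamonds), each point resting on 2 libraries per group. The points of *lbp-8* (0.33 and 0.37) and *lbp-9* (0.30 and 0.34) lie close together, and those of *lbp-1*, *lbp-5* and *lbp-7* lie apart on opposite sides of 0.

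The variation of each member over the 8 libraries was taken as the root mean square of its log2 CPM about its own mean. It was 0.584 for *lbp-8* and below the median of all genes tested, 0.304, for the other 8 members. *lbp-3* was the least variable, at 0.0762, and 94.4% of genes tested varied more. The likeness of 2 genes was the root mean square difference between their centred log2 profiles over the 8 libraries, where 0 means equal profiles. For *lbp-9* the closest of the other 16807 genes was *simr-1*, at 0.0242. For *lbp-8* it was *cyc-2.2*, at 0.0580, and for *lbp-7* it was *dhs-17*, at 0.0599.

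For the other members the closest genes were *oac-59* for *lbp-1* (0.0487), R04F11.5 for *lbp-2* (0.0443), *pfn-2* for *lbp-3* (0.0293), *ctsa-1.1* for *lbp-4* (0.0265), *lgc-35* for *lbp-5* (0.0619) and F44A2.5 for *lbp-6* (0.0280). In no case was the closest gene another member, which says little, as each has only 8 other members among 16807 genes. The smallest difference within the family was that of *lbp-3* and *lbp-4* (0.0928). These were its least variable members, at 0.0762 and 0.107 about their own means. Flat profiles lie near each other by this measure, so the value shows no shared pattern. The closest member to *lbp-8* was *lbp-9* (0.353), and it ranked 1796 among all genes by likeness to *lbp-8*. All these genes share the 8 libraries and the division among them.

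Genes that work around the lipid binding proteins were compared as 6 lists of 49 genes, of which 45 were tested and edgeR called 0. The lysosomal acid lipases release fatty acids in the lysosome. Of 8 lipase genes 6 were tested, edgeR called 0 (0 at an unadjusted p under 0.05), DESeq2 called 0, and the median log2 fold change was 0.14. *lipl-4*, which acts upstream of LBP-8, was at 2.44 ± 1.102 CPM in the Control libraries and 2.45 ± 0.249 CPM in the smrd1Null libraries (SD, n = 4), a log2 fold change of 0.01 (95% interval -0.74 to 0.76). The smallest p of the list was that of *lipl-5* (log2 fold change 0.34, edgeR adjusted p = 0.655).

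The transcription regulators that answer to lipid supply, among them *nhr-49*, *nhr-80* and the Mediator gene *mdt-15*, were all 8 tested. edgeR called 0 (1 at an unadjusted p under 0.05, against 7.74% of all genes tested). DESeq2 called 1, against 1.26% of the genes to which it gave an adjusted p, and the median log2 fold change was -0.18. The partners of the LBP-8 signal did not pass the test, with log2 fold changes of -0.05 for *nhr-49* (95% interval -0.20 to 0.11) and 0.12 for *nhr-80* (95% interval -0.20 to 0.44). The gene of smallest p was *nhr-62*, a nuclear receptor gene, at 6.68, 7.39, 5.70 and 5.77 CPM in Control replicates 1 to 4 and 4.04, 3.90, 3.29 and 3.80 CPM in smrd1Null replicates 1 to 4. Its groups did not overlap, and the log2 fold change was -0.76 (SE 0.153, edgeR adjusted p = 0.200, DESeq2 adjusted p = 7.13e-05).

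The next list held fat metabolism genes that depend on NHR-49 for their level. Of 10 genes 9 were tested and 7 of them had a log2 fold change above 0, with a median of 0.45. Among them edgeR called 0, although 6 had an unadjusted p under 0.05, against 7.74% of all genes tested. All 6 were higher in the smrd1Null libraries, and DESeq2 called 0. The gene of smallest p was *hacd-1*, which encodes an enzyme of fatty acid oxidation, with 46.2 ± 1.43 CPM in the Control libraries and 63.0 ± 11.4 CPM in the smrd1Null libraries (SD, n = 4). Its groups did not overlap, and its log2 fold change was 0.45 (SE 0.124, edgeR adjusted p = 0.440). *fat-5*, which encodes a fatty acid desaturase, had a log2 fold change of 1.26 (edgeR adjusted p = 0.629). It was called with the replicate block (edgeR adjusted p = 0.0400), which called 0.155% of all genes tested. With replicates 1 and 2 divided from 3 and 4, edgeR called 4 genes of this list, *fat-5*, *hacd-1*, *fat-6* and *acdh-2*, all higher, against 5.53% of all genes tested. The same fit called *nhr-62* among the regulators, lower, and 0 of the lipases.

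The other lipid carriers were the nematode fatty acid and retinol binding proteins and the acyl-CoA binding proteins. Of 8 *far* genes 7 were tested, all 7 had a log2 fold change below 0, and the median was -0.18. edgeR called 0 (2 at an unadjusted p under 0.05, against 7.74% of all genes tested), and DESeq2 called 0. *far-6* had the smallest p (log2 fold change -0.26, edgeR adjusted p = 0.639). With replicates 1 and 2 divided from 3 and 4, edgeR called *far-1*, lower, against 5.53% of all genes tested. The same fit called 0 of the acyl-CoA binding protein genes. All 7 acyl-CoA binding protein genes were tested, edgeR called 0 (0 at an unadjusted p under 0.05), DESeq2 called 0, and *maa-1* had the smallest p (log2 fold change -0.42, edgeR adjusted p = 0.646).

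The last list held the yolk proteins, which carry lipid from the intestine to oocytes, with the yolk receptor gene *rme-2* and the lipid transfer gene *dsc-4*. All 8 were tested, 7 had a log2 fold change above 0, and the median was 1.35. edgeR called 0 (6 at an unadjusted p under 0.05, against 7.74% of all genes tested). DESeq2 called 3, against 1.26% of the genes to which it gave an adjusted p. *vit-3* was at 192.0, 61.3, 331.5 and 141.1 CPM in Control replicates 1 to 4 and at 333.6, 474.0, 1187 and 800.9 CPM in smrd1Null replicates 1 to 4. Each smrd1Null library was above each Control library, by margins that varied widely, and the log2 fold change was 1.95 (SE 0.547, edgeR adjusted p = 0.449, DESeq2 adjusted p = 0.0169). The other yolk genes that DESeq2 called, *vit-4* and *vit-5*, had adjusted p of 0.0190 and 0.0285. With the replicates divided, edgeR called *vit-3* and *vit-4*, higher, and *dsc-4*, lower, against 5.53% of all genes tested.

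**Figure D5:**
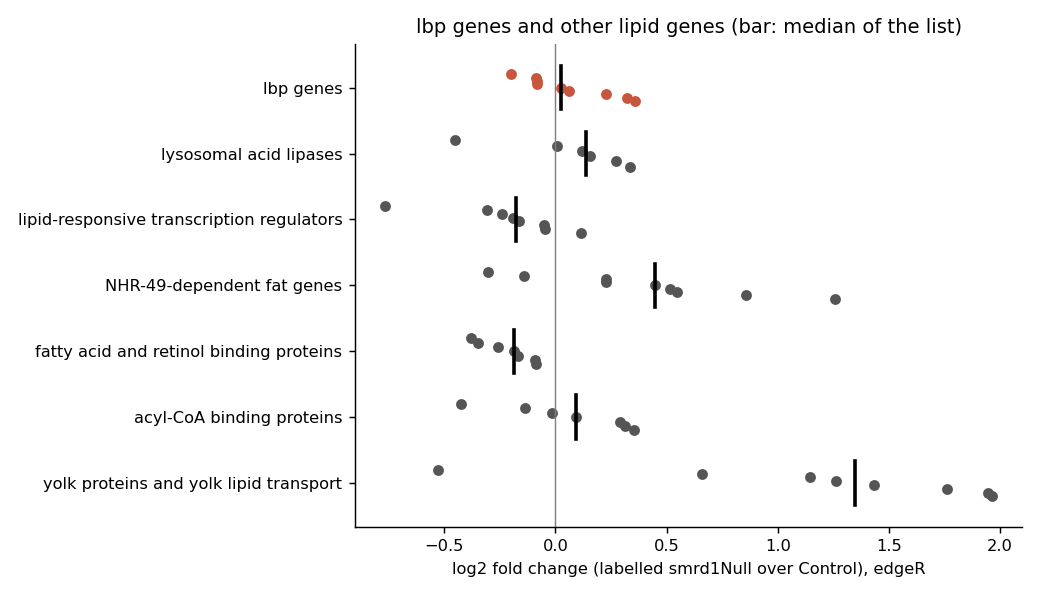
edgeR log2 fold changes (smrd1Null over Control) of the 9 *lbp* genes and of the tested members of 6 lists of other lipid genes, with 1 point per gene and a bar at each list's median. The *lbp* genes lie between -0.20 and 0.36 with a median of 0.03, and the yolk list has a median of 1.35.

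Markers of reproductive tissue were compared in the same way. Of 9 oocyte and eggshell genes, 9 had a log2 fold change above 0 with a median of 0.86. An unadjusted p under 0.05 was found for 7, all of them higher, against 7.74% of all genes tested. edgeR called 0 of the 9 genes, as did DESeq2. Their summed level was 356 to 795 CPM in the Control libraries and 606 to 1455 CPM in the smrd1Null libraries, and no marker was at 0. Of 9 sperm genes, 9 were above 0 with a median of 0.32. The summed sperm level was 128 to 202 CPM in replicates 1 and 2 and 249 to 341 CPM in replicates 3 and 4. The sum thus divided the libraries in the same way as *lbp-2*, *lbp-8* and *lbp-9*. Of the sperm genes *fer-1* overlapped between the sets, at 23.5 to 38.3 CPM and 27.8 to 36.4 CPM in the same order. The summed level of 6 intestine genes was 2572 to 3233 CPM in replicates 1 and 2 and 1506 to 1828 CPM in replicates 3 and 4. Of these genes *act-5*, *ifb-2* and *vha-6* were higher in every library of replicates 1 and 2 than in any of replicates 3 and 4, and *elt-2*, *elt-7* and *ges-1* overlapped. The summed level of 5 body wall muscle genes was 9656 to 10584 CPM and 5460 to 7106 CPM in the same order, and that of 5 neuron genes 236.4 to 258.5 CPM and 205.0 to 224.1 CPM. Other sums overlapped between the sets. These were hypodermis (291 to 388 and 135 to 393 CPM), germ line (1187 to 1361 and 1201 to 1571 CPM) and oocytes and eggshell (356 to 765 and 451 to 1455 CPM). The part of these tissue levels in the values of *lbp-8* and *lbp-9* was not tested, and in whole worms fewer cells of a type and less RNA per cell cannot be told apart.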

How the data were processed

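The authors used STAR to align the paired reads to WBcel235 and counted them with featureCounts 2.0.1 on Ensembl release 112, and the deposited values are raw counts of each gene, not normalized. Per the file headers, mates were counted singly, strand was not used and reads with several places were left out, so counting error is larger than the counts alone would give. The authors' table of their own DESeq2 comparison was used for gene symbols only. Exon coordinates came from Ensembl release 115 and were the same as in the count table for all 9 members.

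Counts were analysed with edgeR 4.0.16 (TMM, filter by group, quasi-likelihood test, Benjamini-Hochberg adjustment over 16808 genes, threshold 0.05) and DESeq2 1.42.0 in R 4.3.3, with Python 3.11.15 and matplotlib 3.10.9. Each SE is the estimate over the root of its F statistic, and 95% intervals use the t quantile at edgeR's total degrees of freedom. Log2 CPM has a prior count of 2. RPKM is TMM CPM per kilobase of the deposited length. The tests were checked on simulated counts that had no division of replicates and larger planted changes than those of the *lbp* genes. That check therefore says little about changes of their size.

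Deviations from the group means correlated across genes in each same-numbered pair of libraries, at 0.357, 0.221, 0.489 and 0.390, so the replicate block was taken as a pairing read from the data, which the labels do not describe. The library of the other group with the highest correlation had another number for 4 of the 8 libraries. The alternatives tried were DESeq2 (also without independent filtering), edgeR on DESeq2's size factors, 2 other filters, the block and each library left out. The division of replicates 1 and 2 from 3 and 4 and its interaction were added after earlier results. The members and lists were chosen with earlier results of these data known. Genes named are the 9 members, *smrd-1*, list members that were called or had the smallest p of their list, and the gene closest to each member. *lipl-4*, *nhr-49* and *nhr-80* were named for their known link to LBP-8, and *mdt-15* and *rme-2* to say what a list holds. List genes called only by DESeq2, the block or the division, the intestine markers, *snb-1* and *fer-1* were named after their values were seen.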

Additional observations from a re-analysis of the deposited data

Results flagged for a closer look

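The group difference of *lbp-1* and *lbp-7* was not the same in the replicate sets. On the log2 scale, smrd1Null minus Control in replicates 3 and 4 less that in replicates 1 and 2 was 0.54 for *lbp-1* (edgeR interaction, adjusted p = 0.0479) and 0.58 for *lbp-7* (adjusted p = 0.0381, edgeR). The replicate sets were read from the data and are no condition of the study. DESeq2 also called both, with adjusted p of 0.0247 and 0.00924, among 7.74% of the genes to which it gave an adjusted p (1198 of 15487). Leaving out 1 library gave 0.49 to 0.61 for *lbp-1* and 0.49 to 0.66 for *lbp-7*, and edgeR's adjusted p rose above 0.05 in all 8 of these fits for *lbp-1* and in 7 of 8 for *lbp-7*. No library stood apart from its group by Dixon's test in the 32 groups of 4 examined, which were 16 named genes in each of the groups. With 4 values this test has little power. It does not flag 2 libraries that are high together, as Control replicates 1 and 2 were for *lbp-1*, so outlying libraries are not excluded.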

How the results depend on the processing

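Over 15 alternatives, 132 of the 135 log2 fold changes of single *lbp* genes kept their direction and their side of the threshold. The exceptions were *lbp-2*, whose log2 fold change when 1 library was left out ran between -0.046 and 0.071 and was reversed in 2 of those 8 fits, and *lbp-9*, which was called (0.32) with replicates 1 and 2 divided from 3 and 4. That division gave 1 called *lbp* gene, 929 called genes in all and 9 in the lipid lists. DESeq2 called 251 genes, or 226 without independent filtering, and 4 list genes in each case. With the replicate block, which changed no call of an *lbp* gene, edgeR called 26 genes, 1 of them in the lipid lists, where there was 0 without it. With 1 library left out the number of genes called was 7 to 14, *smrd-1* had log2 fold changes of 0.77 to 0.85, and its adjusted p rose to 0.0574 (edgeR) without smrd1Null replicate 1. The number of *lbp* genes with a group difference that changed between the replicate sets was 0 to 1 instead of 2, while the same fits called 0 to 997 of all genes instead of 699. With 1 library left out, the group difference over all replicates of *lbp-1* ran from -0.30 to -0.10, *lbp-7* from 0.17 to 0.31 and *lbp-9* from 0.21 to 0.40 on the log2 scale. The causes were not tested. For *lbp-8*, which had at least 153 counts in each library, the interval reached 1.26 on the log2 scale, or 0.66 with the block and 0.60 with the division.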
